A study of Homo sapiens with 6 samples.

Results

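The HuR sites of chromosomes 4 and 13 are described here, taken as every interval that the 5 deposited site lists place on either chromosome and grouped by bins of 1 Mb. Both chromosomes were chosen because earlier results of these data gave them few sites for their length, so site density, gaps and empty bins are descriptions and no test of them is given. The list of the 3 HuR replicates combined held 31896 sites on chromosome 4 and 16269 on chromosome 13, together 7.31% of its 658853 sites. The list limited by the authors' p filter held 16718 and 8771. The replicate lists held 7493, 18080 and 26683 sites on chromosome 4 and 3928, 9405 and 13570 on chromosome 13, for replicates 1, 2 and 3 in that order.

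The cells were HEK293, an established human embryonic kidney line, used without a further treatment or allele named in the labels. In DO-RIP-seq a lysate is digested with micrococcal nuclease, RNA fragments bound by a protein are recovered with an antibody, and the fragments are sequenced. The labels give 3 immunoprecipitations with the 3A2 antibody to HuR and 3 with normal mouse serum, and the serum samples have no values of their own here. Because the immunoprecipitations were taken from 1 pool of digested lysate, an SD over the 3 replicates may cover technical spread only. Sites are stranded intervals on hg19, each scored by the authors with a LOD above 0, and how deeply each library was sequenced is unknown. The replicate lists ranged from 186157 to 550681 sites in all.

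HuR, the product of ELAVL1, is an RNA-binding protein that recognises U-rich and AU-rich stretches in introns and 3′ untranslated regions and is known for stabilising the messenger RNAs it binds. Its sites can be seen only where a transcript is made. Chromosome 13 is acrocentric, with a short arm made of satellite and ribosomal repeats that the hg19 build leaves unsequenced, and both chromosomes are known for long gene deserts. Which genes lie at the positions below is not given, because the annotation used here is on GRCh38 and the sites are on hg19. Sequences of the sites were not used here for the same reason.

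The name of gene-poor chromosomes held in a count of genes. RefSeq on GRCh38.p14 lists 338 protein-coding genes on chromosome 13 and 770 on chromosome 4, or 2.96 and 4.05 genes per Mb of that build, the lowest and the third lowest of the 22 numbered chromosomes. Over the whole length, combined sites numbered 141 per Mb on chromosome 13, the lowest of 22, and 167 on chromosome 4, the fourth lowest. That length includes 19.2 Mb of chromosome 13 before its first site. From the first site on, chromosome 13 had 169.6 per Mb, the third lowest, chromosome 4 had 167, the second lowest, and chromosome 8 had 163. Over whole lengths the other 20 numbered chromosomes ranged from 163 per Mb on chromosome 21 to 380 on chromosome 17, with a median of 228. Counted per protein-coding gene, the picture turned. Chromosome 13 had 48.1 combined sites per gene, the third highest of 22, and chromosome 4 had 41.4, the eighth highest, against a median of 33.2 on the other chromosomes and 12.0 on chromosome 19. The highest was chromosome 18 at 64.7, which lies between chromosomes 13 and 4 in genes per Mb, at 3.36. In the replicate lists chromosome 13 had 11.6, 27.8 and 40.1 sites per gene, ranks 6, 5 and 3 from the top. Chromosome 4 had 9.73, 23.5 and 34.7, ranks 11, 9 and 8. Transcript length and abundance were not corrected for, and gene numbers come from another build than the sites.

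**Figure D1:**
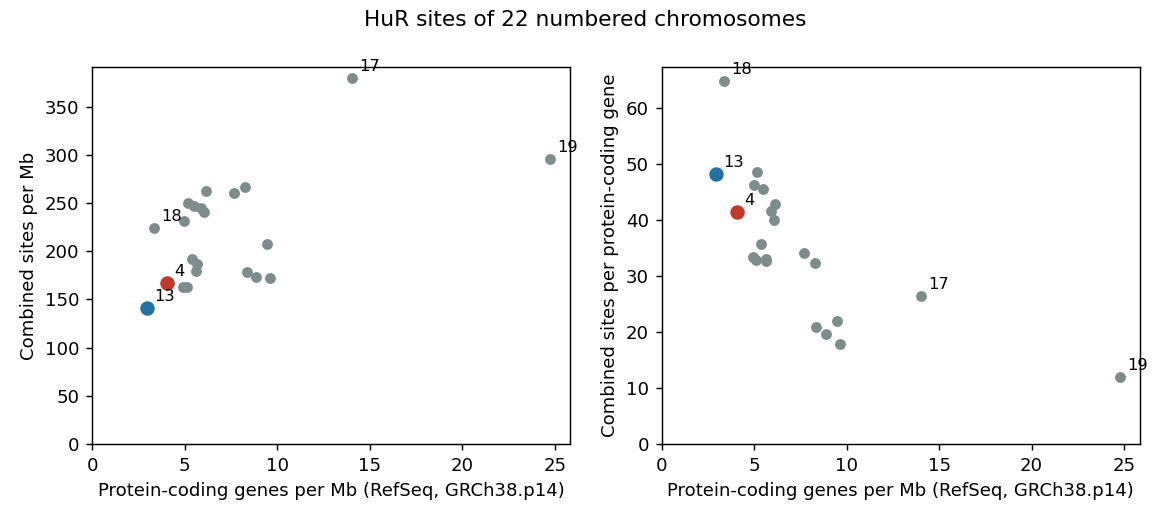
Combined HuR sites per Mb (left) and per protein-coding gene (right) against protein-coding genes per Mb, 1 point per numbered chromosome, with chromosome 4 in red and chromosome 13 in blue. Chromosome 13 is lowest in sites per Mb of its whole length, at 141, and near the top in sites per gene, at 48.1.

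Sites on both chromosomes were unevenly spread over the bins. Of 191 bins on chromosome 4, the combined list left 4 empty, 44 held 1 to 10 sites, 20 held 11 to 50 and 123 held more. Of 116 bins on chromosome 13, 21 were empty, of which 19 lie before its first site, 27 held 1 to 10 sites, 1 held 11 to 50 and 67 held more. Chromosome 13 therefore had almost no bins of 11 to 50 sites. That class held 0.862% of its bins, against 10.5% on chromosome 4 and 7.86% on the other numbered chromosomes. Its bins of over 50 sites were graded, from 54 to 688 sites. Bins of 1 to 10 sites made up 23.28% of chromosome 13 and 23.04% of chromosome 4, the highest and the second highest of 22 chromosomes, and at most 20.4% of any other, on chromosome 5. The median bin held 78.5 sites on chromosome 13 and 112 on chromosome 4, against medians from 61 to 379.5 on the others. Counted from the first site, the median of chromosome 13 was 115 over 97 bins.

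Bins that held any site were also less full than on most chromosomes. Occupied bins held a mean of 171 sites on chromosome 4 and 171 on chromosome 13, the second and the third lowest of 22, after chromosome 8 at 166. The fullest 10% of all bins, empty ones counted, 12 on chromosome 13 and 20 on chromosome 4, held 38.1% and 32.9% of the sites, against a median of 29.9% on the others.

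Each replicate list left more bins empty than the combined list did. On chromosome 4, 27, 26 and 9 bins had no site in replicates 1, 2 and 3, or 14.1%, 13.6% and 4.71% of the bins, a mean of 10.8% ± 5.30 (SD, n = 3). On chromosome 13 the counts were 38, 38 and 23, or 32.8%, 32.8% and 19.8%, a mean of 28.4% ± 7.47 (SD, n = 3). Without the 19 bins before the first site, 19, 19 and 4 of 97 bins were empty, a mean of 14.4% ± 8.93 (SD, n = 3), which overlaps the values of chromosome 4. Replicate 3, the longest list, had the fewest empty bins on either chromosome. Every replicate list had a site in 156 of the 191 bins of chromosome 4 and in 74 of the 116 bins of chromosome 13. The numbers of sites per bin moved together between lists, with Pearson coefficients across bins from 0.951 to 0.987 on chromosome 4 and from 0.952 to 0.990 on chromosome 13. Bins are not independent replicates and the lists share cells, so these coefficients describe the lists only.

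**Figure D2:**
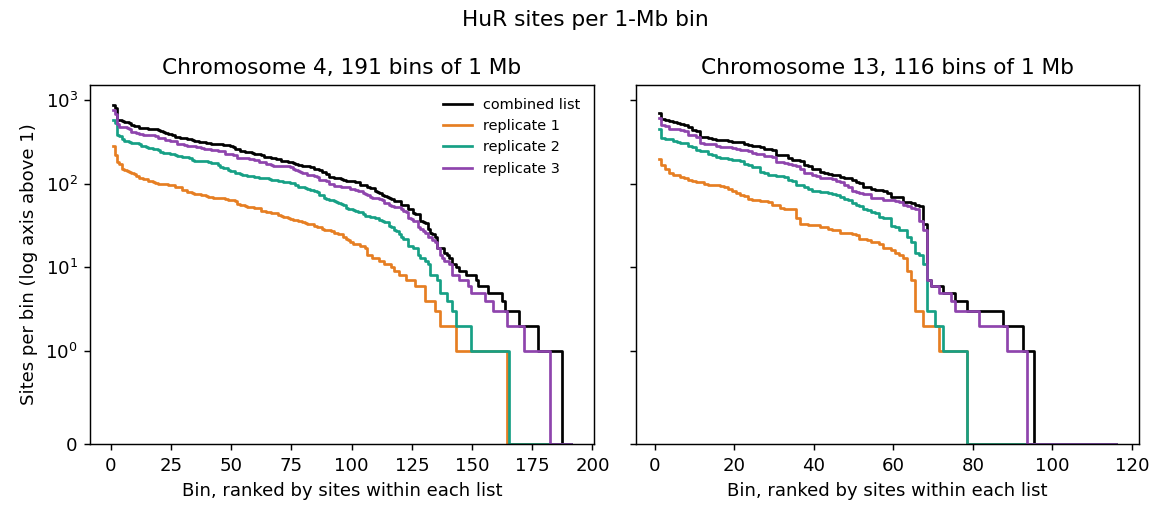
Sites per 1-Mb bin, with bins ranked from fullest to emptiest within each list, for chromosome 4 (left) and chromosome 13 (right), on a log axis above 1. On chromosome 13 the curves drop steeply after about the 67 bins that hold over 50 combined sites, while on chromosome 4 they slope down.

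The longest stretches without a site were much the same in kind on both chromosomes once the start of chromosome 13 was set aside. The largest was chromosome 13:1-19179310, 19.2 Mb before its first site, which takes in the unsequenced short arm. Chromosome 4:49617091-52711610, 3.09 Mb, was the longest on chromosome 4 and lies around the centromere, also unsequenced in this build. Which bases of these stretches are unsequenced was not checked. The rest of the 5 longest on chromosome 4 were 33719141-35389620 at 1.67 Mb, 60698926-62069360 at 1.37 Mb, 130402706-131694505 at 1.29 Mb and 29157111-30389200 at 1.23 Mb, with 135140246-136371275 next, also at 1.23 Mb. Those of chromosome 13 were 86311081-87860480 at 1.55 Mb, 56734211-58066790 at 1.33 Mb, 53418496-54598815 at 1.18 Mb and 61986026-63044025 at 1.06 Mb. In all, 14 stretches of chromosome 4 and 5 of chromosome 13 were longer than 1 Mb. No site of any replicate list lay inside any stretch of over 500 kb that the combined list left empty.

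Stretches of over 500 kb between combined sites numbered 51 on chromosome 4 and 26 on chromosome 13. They covered 22.6% of the length from the first to the last site on chromosome 4 and 21.7% on chromosome 13, the sixth and the seventh highest of 22, with the others from 3.39% on chromosome 22 to 26.6% on chromosome 9. Emptiness at this scale was thus not the most marked of the numbered chromosomes. In replicates 1, 2 and 3 such stretches totalled 105, 98.6 and 57.7 Mb on chromosome 4 and 49.8, 47.0 and 28.2 Mb on chromosome 13. The longest on chromosome 13 was 4.89, 5.12 and 1.90 Mb in the same order. The longest row of bins with at most 10 sites that was not wholly empty was chromosome 13:81000001-88000000, where 7 bins in a row held 24 combined sites, at most 6 in a bin. On chromosome 4 the longest such rows were 32000001-36000000 and 58000001-62000000, each with 8 sites in 4 bins.

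Gaps between neighbouring sites of a strand were short beside the empty stretches. The median gap on chromosome 4 was 950, 480 and 445 nt in replicates 1, 2 and 3, and on chromosome 13 it was 900, 475 and 435 nt. On the other numbered chromosomes it was 860, 455 and 425 nt. The differences were 45 ± 39.1 nt for chromosome 4 and 23.3 ± 15.3 nt for chromosome 13 (SD, n = 3), above 0 in every replicate. Gaps over 100 kb were commoner, at 6.83%, 2.94% and 2.81% of gaps on chromosome 4 and 6.85%, 2.98% and 2.68% on chromosome 13, against 4.83%, 2.27% and 2.03% elsewhere. Sites on these chromosomes thus lay nearly as close to their neighbours as on others, within groups set further apart.

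Those groups were described as islands, in which combined sites of either strand follow each other at gaps of at most 100 kb. Chromosome 4 had 395 islands and chromosome 13 had 214. Nearly all sites lay in islands of 10 or more, with 98.5% of sites in 168 islands on chromosome 4 and 98.5% in 84 islands on chromosome 13. These islands covered 33.8% and 27.7% of the length of the chromosomes, and their median lengths were 290 and 329 kb. Islands of 100 or more sites, 97 and 55 in number, held 89.2% and 90.6% of the sites. A combined site found in all 3 replicate lists was present in 161 of the 168 and 81 of the 84 islands. As 19.1% and 19.6% of combined sites were in all 3 lists, islands of many sites would mostly hold one.

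The largest island of chromosome 13 was 41025746-42897390, 1872 kb long, with 1111 combined sites and 231, 633 and 932 sites in replicates 1, 2 and 3. Its sites were split over both strands, with 52.5% on the commoner one. The next on chromosome 13 were 19773971-20763105 with 707 sites, 20977831-22278525 with 657, 96176341-97384540 with 602 and 32827846-33360250 with 591. The largest of chromosome 4 was 38623551-40167980, 1544 kb long, with 1082 combined sites and 340, 704 and 947 in the replicates, split at 50.7%. The island 20183891-20823855 of chromosome 4 was of another kind, with 784 sites over 640 kb of which 99.6% were on the plus strand. It had 219, 522 and 675 sites in the replicates. Islands 83266096-84534420 with 776 sites, 150989106-152718670 with 773 and 47835126-48905680 with 666 followed on chromosome 4.

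Islands on a single strand were a regular feature. Of islands of 10 or more sites, 52 of 168 on chromosome 4 and 27 of 84 on chromosome 13 had at least 95% of their sites on 1 strand, or 31.0% and 32.1%, near the median of 30.3% on the other chromosomes. Besides the island named above, the largest on chromosome 4 were 62069361-62944000 with 298 sites and, with 292 each, 26586576-27027975 and 30663151-31150975, and on chromosome 13 they were 35514566-36246860 with 338 and 60239766-60746245 with 307. The longest unbroken run on 1 strand, with no gap over 10 kb, was chromosome 4:151564016-151933665 on the minus strand, 370 kb with 363 sites, and 1 site on the plus strand. On chromosome 13 it was 77618926-77899680 on the minus strand, 281 kb with 394 sites. Such runs of over 200 kb held 0%, 1.55% and 3.83% of sites on chromosome 4 and 0%, 2.48% and 4.73% on chromosome 13 in replicates 1, 2 and 3, against 0.0832%, 1.95% and 4.47% elsewhere. The differences, −0.37 ± 0.28 and 0.23 ± 0.30 percentage points (SD, n = 3), were about as large as their spread, and that for chromosome 13 turned to −0.27 and −0.82 with joining gaps of 5 and 20 kb. By strand, the plus strand carried 52.1% ± 0.219 of sites on chromosome 4 and 47.5% ± 0.823 on chromosome 13, against 50.9% ± 0.120 elsewhere (SD, n = 3). Single chromosomes differed more than that pooled value shows. In the combined list the others ranged from 47.6% on chromosome 16 to 55.4% on chromosome 5. Chromosome 4 had 52.0% there, the eighth highest of 22, and chromosome 13 had 48.7%, the fifth lowest.

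**Figure D3:**
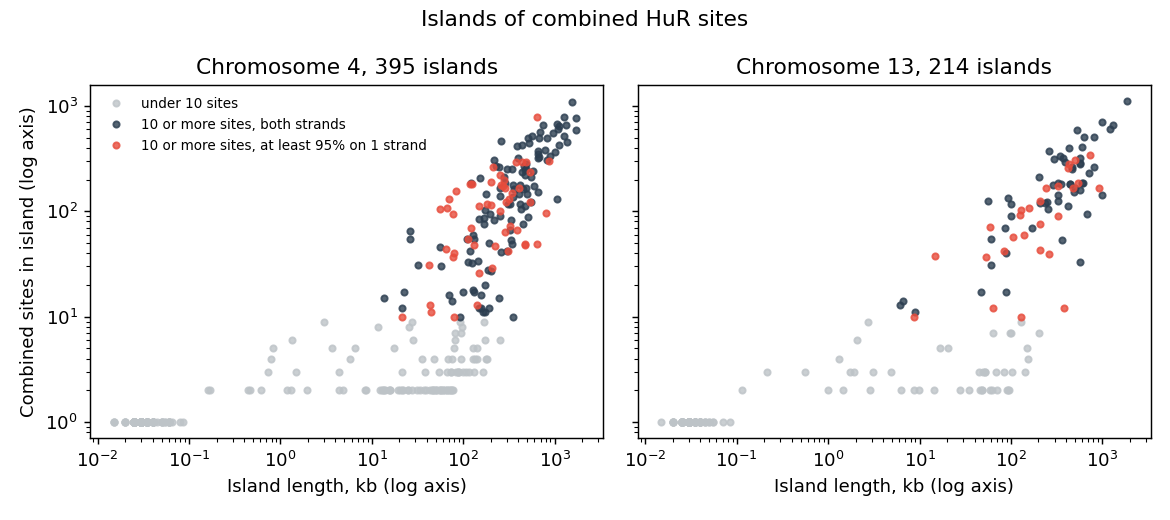
Combined sites against length of each island on log axes, for chromosome 4 (395 islands) and chromosome 13 (214 islands), with islands of 10 or more sites coloured by strand. Islands with at least 95% of sites on 1 strand, 52 and 27 in number, lie among the others and reach 784 sites on chromosome 4.

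Lone sites stood at the other end. On chromosome 4, 125 islands consisted of 1 site, and on chromosome 13 there were 85. They were 0.522% of the sites of chromosome 13, the highest share of 22, and 0.392% of those of chromosome 4, the fourth highest. Most were narrow and low in score, with a median width of 30 nt on both and median percentiles in the combined list of 34.1 and 25.2. All 3 replicate lists held 8 of the 125 and 4 of the 85, where 22.9% of all combined sites of the genome were in all 3. On chromosome 4, 23, 19 and 91 of them were in replicates 1, 2 and 3, and 21 were in none. On chromosome 13 the counts were 12, 12 and 60, with 16 in none. The p filter kept 27 and 11, where it kept 52.3% of all combined sites.

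A few lone sites were high in score and present in every list. Chromosome 4:130402676-130402705 on the plus strand, 30 nt wide, had a combined LOD of 20.7, at percentile 99.8, and borders one of the longest empty stretches of that chromosome. Chromosome 13:30525536-30525575 on the minus strand had 19.2, at percentile 99.6. Chromosome 4:29157076-29157110 on the minus strand had 16.04, at percentile 97.9, and also borders an empty stretch, of 1.23 Mb. It was the only combined site in its bin, and each replicate list held 1 site there. Of the 12 lone sites found in all 3 lists, 11 were kept by the p filter. Among all combined sites found in all 3 lists, it kept 98.3% on chromosome 4 and 98.1% on chromosome 13. Lone sites were singled out once their values were known.

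Site width did not set the chromosomes apart. The median width was 45, 55 and 50 nt in replicates 1, 2 and 3 on chromosome 4, on chromosome 13 and on the other numbered chromosomes alike. Interval ends lie on a grid of 5 nt, so smaller differences of a median cannot be seen. Mean widths were 48.8, 63.9 and 55.7 nt on chromosome 4, 49.3, 64.3 and 56.5 nt on chromosome 13 and 49.0, 65.4 and 57.8 nt elsewhere. The difference was −1.26 ± 0.93 nt for chromosome 4, below 0 in 3 of 3 replicates, and −0.69 ± 0.84 nt for chromosome 13, below 0 in 2 of 3 (SD, n = 3). The widest sites spanned 910 nt on chromosome 4 and 995 nt on chromosome 13, both in replicate 2.

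LOD scores were close to those elsewhere. Because score levels differ between lists, a score is given as its percentile within its own list. The median percentile on chromosome 4 was 50.1, 49.2 and 47.9 in replicates 1, 2 and 3, on chromosome 13 it was 50.3, 48.7 and 48.5, and on the others 50, 50.1 and 50.2. The differences were −1.03 ± 1.20 and −0.94 ± 1.11 percentile points (SD, n = 3), within their spread and of opposite sign in replicate 1. Fewer sites than elsewhere fell in the lowest score decile in every replicate, with 9.46%, 8.74% and 8.81% on chromosome 4 and 8.48%, 8.83% and 8.85% on chromosome 13, against about 10% in each list elsewhere. The differences were −0.999 ± 0.404 and −1.29 ± 0.201 percentage points (SD, n = 3). Deciles 2 and 3, counted from the lowest, showed no such shortfall in replicates 2 and 3. In replicate 3, deciles 1, 2 and 3 held 2352, 2850 and 2964 sites on chromosome 4. They held 1201, 1420 and 1477 on chromosome 13 and 49304, 49152 and 48645 elsewhere. In replicate 1 they held 709, 651 and 828 on chromosome 4, with no steady rise. The lowest decile alone thus does not show that weak sites were scarcer. The top decile held 10.5%, 9.24% and 8.63% of sites on chromosome 4 and 9.75%, 9.21% and 8.93% on chromosome 13. With 3 replicates the smallest p of an exact two-sided sign-flip test is 0.25, here and in each comparison that follows, so the size and spread of each difference are given in its place.

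The strongest sites found in all 3 lists lay mostly in bins of over 300 combined sites. Such bins held 55.9% of all combined sites on chromosome 4 and 58.4% on chromosome 13, so most sites of any score lay there. Chromosome 4:119397131-119397190 on the plus strand had the highest combined LOD of both chromosomes, 26.2, rank 22 of the whole combined list, and stood at percentiles 99.9, 99.9 and 100.0 of replicates 1, 2 and 3. The next, chromosome 4:79781151-79781205, also plus, had 25.4 and percentiles 99.5, 99.9 and 98.9. The highest of chromosome 13 were 52741861-52741930 on the minus strand with 25.3 and 41703586-41703700 on the minus strand with 24.8, the latter inside the largest island. Next on that chromosome were 114747851-114747935 with 24.0, 21352446-21352540 with 22.8, both on the minus strand, and 42894316-42894445 on the plus strand with 22.8. On chromosome 4 the sites 1998951-1999030 and 39328476-39328550, both on the minus strand, had 24.3 and 23.6.

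Chromosome 4:66398386-66398415 on the plus strand, with a combined LOD of 24.7, stood out by its surroundings on that strand. It was no lone site, as it lay inside the island 66185326-66684450 of 147 combined sites, 31 of them on the plus strand. The site was 30 nt wide and had no other combined site of its strand within 10 kb, the nearest being 138445 nt away. Replicate 1 placed it at percentile 86.5, replicate 2 at 99.5 and replicate 3 at 100.0, a mean of 95.3 ± 7.63 (SD, n = 3), so replicate 1 ranked it below the other two. Of the other 9 sites, 8 had between 13 and 54 combined sites within 10 kb on their strand, and 114747851-114747935 of chromosome 13 had 1.

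Recurrence, the share of sites that overlap by at least 1 nt a same-strand site in both other replicate lists, was lower than elsewhere in replicates 2 and 3 and not in replicate 1. On chromosome 4, 6693 of 7493 sites of replicate 1 recurred, or 89.3%, 34.3% of sites of replicate 2 and 23.6% of replicate 3. On chromosome 13 the shares were 89.6%, 34.3% and 24.3%, and on the other numbered chromosomes 89.1%, 38.0% and 28.7%. Over all chromosomes the lists had 89.1%, 37.8% and 28.4%. The differences from the other chromosomes were 0.199, −3.75 and −5.04 percentage points for chromosome 4, a mean of −2.86 ± 2.73, and 0.489, −3.75 and −4.35 for chromosome 13, a mean of −2.54 ± 2.64 (SD, n = 3). Mean differences were therefore about as large as their spread, and replicate 1 differed in sign. The 3 shares count largely the same overlaps over lists of unlike length. Recurrent sites numbered 6693, 6194 and 6308 on chromosome 4 and 3520, 3222 and 3302 on chromosome 13 in replicates 1, 2 and 3. The SD of a recurrence difference, here and below, thus also reflects list length and is no spread of independent measurements. Against chromosomes 8 and 11 alone, the nearest to chromosome 4 in sites per Mb from the first site on apart from chromosome 13, the differences were smaller, at −1.26 ± 2.15 and −0.94 ± 2.06 (SD, n = 3), within their spread.

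Among the 22 numbered chromosomes, 4 and 13 had the lowest 2 shares in replicate 2 and in replicate 3, followed by chromosome 8 at 34.96% and 25.4%. In replicate 1 they ranked 10 and 7 from the top. Earlier results had already shown recurrent sites to be scarcer on chromosome 13, so this order is no independent support.

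**Figure D4:**
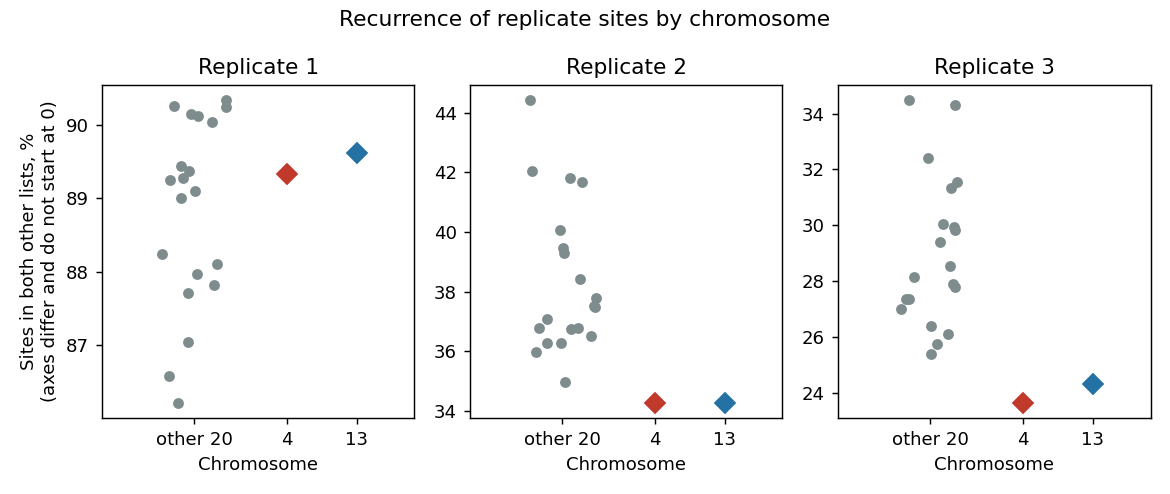
Share of sites that overlap a site in both other lists, in percent, 1 point per numbered chromosome, in a panel for each replicate with its own axis that does not start at 0. Chromosomes 4 (red) and 13 (blue) lie within the others in replicate 1, at 89.3% and 89.6%, and below them all in replicates 2 and 3.

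The shortfall lay in matches of a longer list with a shorter one. Replicate 2 sites overlapped a replicate 1 site at 35.4% on chromosome 4 and 35.3% on chromosome 13, against 39.4% elsewhere, but a replicate 3 site at 86.3% and 85.9%, against 85.8%. Replicate 3 sites overlapped a replicate 1 site at 24.5% and 25.3%, against 29.6%, and a replicate 2 site at 59.3% and 60.4%, against 64.5%. Replicate 1 sites overlapped replicate 2 at 92.5% and 92.5%, against 92.7%, and replicate 3 at 92.5% and 93.0%, against 92.0%. The share of the whole list that fell on chromosome 4 was 4.03%, 4.46% and 4.85% in replicates 1, 2 and 3, and that on chromosome 13 was 2.11%, 2.32% and 2.46%, so the longer lists gave these chromosomes a larger share. The shorter lists thus left relatively fewer sites here for the longer lists to match. Recurrence in replicates 2 and 3 is therefore no measure of how reproducible sites are, apart from list length. With each list limited to its 186157 highest-scoring sites, the length of the shortest, the difference in recurrence was −1.67 ± 2.42 points for chromosome 4 and −2.38 ± 2.52 for chromosome 13 (SD, n = 3).

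The lower recurrence of replicate 3 was seen at every score level. In that list chromosome 4 was below the other chromosomes in 10 of 10 score deciles and so was chromosome 13, with differences of −0.91 and −0.69 points in the top decile and −5.37 and −4.27 in the eighth. In the top decile of replicate 2 the shares were 92.7% and 93.0%, against 93.0% elsewhere, so the strongest sites recurred about as often. Averaged within deciles, the difference was −1.98 ± 1.86 points for chromosome 4 and −1.83 ± 1.80 for chromosome 13 (SD, n = 3). With at least 50% of each interval shared it was −2.54 ± 1.41 and −2.85 ± 0.78 (SD, n = 3).

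Recurrence also differed by how crowded the bin was. In replicate 1, sites in bins of 1 to 10 combined sites recurred at 45.2% on chromosome 4, from 31 sites, and 50.4% on the other numbered chromosomes, against 90.2% and 89.7% in bins of over 300. In replicate 3 the shares were 10.8% and 10.7% in the sparsest bins and 25.2% and 29.4% in the fullest. The sparsest bins of chromosome 13 in replicate 3 gave 6.67%, from 75 sites, and the fullest 24.6%. Replicate 2 showed no such slope, with 40% in the sparsest bins of chromosome 4, from 35 sites, and 34.6% in the fullest. Limited to bins of at most 103 combined sites, the median of both chromosomes, chromosome 4 was still lower than the others by a mean of −1.98 ± 1.89 points, but chromosome 13 was higher, at 2.39 ± 0.97 (SD, n = 3). By class, chromosome 13 was above the others in bins of 51 to 150 sites, at 89.8%, 39.4% and 26.0% in replicates 1, 2 and 3 against 87.1%, 37.6% and 25.2%. In its bins of 1 to 10 sites it was below them, at 46.2%, 31.2% and 6.67% against 50.4%, 38.4% and 10.7%, from only 13, 16 and 75 sites.

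**Figure D5:**
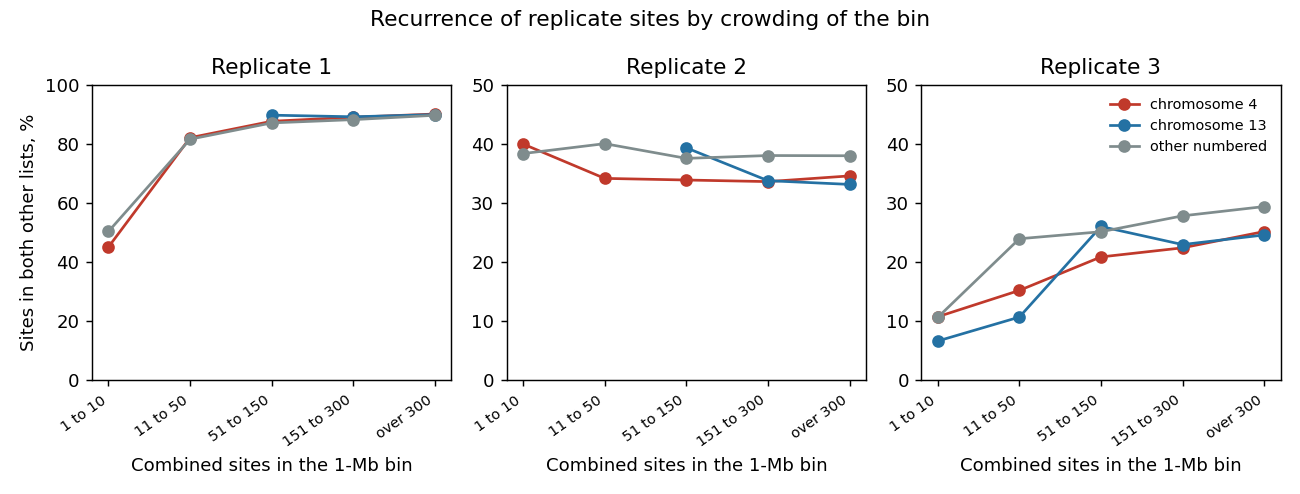
Share of sites that overlap a site in both other lists, in percent, by the number of combined sites in the 1-Mb bin, for chromosome 4 (red), chromosome 13 (blue) and the other numbered chromosomes (grey), in a panel for each replicate. Classes of under 20 sites are left out, and the axes end at 100 or 50. In replicate 3 the sparsest bins have the lowest share in all 3 groups, at 10.8%, 6.67% and 10.7%.

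The combined list gave the same picture from 1 set of sites. Of combined sites, 19.1% on chromosome 4 and 19.6% on chromosome 13 overlapped all 3 replicate lists, against 23.1% on the other numbered chromosomes and 22.9% over all chromosomes. Taken singly, the others ranged from 20.2% on chromosome 8 to 27.8% on chromosome 19. The shares of chromosomes 4 and 13 had 95% Wilson intervals of 18.7 to 19.5 and 18.96 to 20.2, for counting error only. Sites in 1 list were commoner, at 39.4% and 38.6% against 35.9%, and sites in none made up 11.8% and 11.7% against 10.9%. Sites found in all 3 lists were alike in kind everywhere, with median LOD scores of 11.3, 11.2 and 11.2 and a median width of 85 nt on chromosome 4, chromosome 13 and the others.

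The p filter kept fewer sites on these chromosomes. It kept 48.6% of combined sites on chromosome 4 (95% Wilson interval 48.0 to 49.1) and 49.9% on chromosome 13 (49.2 to 50.7), against 52.6% on the other numbered chromosomes and 52.3% over all. Chromosome 4 had the lowest share of 22, with chromosome 3 at 49.9% next, then chromosome 13. Within a class of recurrence the shares were close: sites in all 3 lists were kept at 98.3%, 98.1% and 98.1%, those in 2 lists at 65.8%, 66.5% and 66.7% and those in 1 list at 22.7%, 24.4% and 24.4% on chromosome 4, chromosome 13 and the others. The combined list and its filter rest on the same reads as the replicates, so these shares are not independent of recurrence.

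Shares varied from bin to bin. Bins hold far fewer sites than chromosomes, and small counts alone widen a range, so the spread over bins cannot be set against that over chromosomes. Among bins of at least 50 combined sites, the share of sites in all 3 lists ranged from 0% to 32.3% over 124 bins of chromosome 4, with a median of 19.2%, and from 0.917% to 31.6% over 67 bins of chromosome 13, with a median of 20.4%. The highest on chromosome 4 were 10000001-11000000 with 20 of 62 sites (32.3%, 95% Wilson interval 21.95 to 44.6), 1000001-2000000 with 107 of 341 (31.4%) and 24000001-25000000 with 55 of 185 (29.7%). Those of chromosome 13 were 29000001-30000000 with 24 of 76 (31.6%, interval 22.2 to 42.7), 108000001-109000000 with 25 of 81 (30.9%) and 67000001-68000000 with 31 of 103 (30.1%).

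The least recurrent bins had most of their sites on 1 strand, and so did some of the most recurrent. In the most recurrent bins of chromosome 4, in the order above, 8.06%, 67.4% and 0.541% of combined sites were on the plus strand. In those of chromosome 13 the shares were 60.5%, 48.1% and 2.91%. Chromosome 4:93000001-94000000 had no site in all 3 lists, 0 of 50, which allows a share of up to 6%, and held 0, 2 and 38 sites in replicates 1, 2 and 3, with 96.0% of its combined sites on the plus strand. Chromosome 4:91000001-92000000 had 1 of 97, with 2, 17 and 69 sites in the replicates and 99.0% on the plus strand. Chromosome 4:145000001-146000000 had 4 of 108, or 3.70%, with 16.7% on the plus strand. The neighbouring bins of chromosome 13, 93000001-94000000 and 94000001-95000000, had 3 of 69 and 1 of 109, with 95.7% and 99.1% on the plus strand and 3, 20 and 63 and 2, 15 and 75 sites in the replicates. Chromosome 13:72000001-73000000 had 16 of 281, or 5.69%, with 3.20% on the plus strand. Replicate 3, the longest list, held the most sites in each of these 6 least recurrent bins. It also did so in the most recurrent bins, as in chromosome 4:1000001-2000000 with 135, 233 and 297 sites in the replicates.

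The fullest bins were less uniform. Chromosome 4:39000001-40000000 held 861 combined sites, of which 25.6% were in all 3 lists, and 20000001-21000000 held 786 (23.9%), 83000001-84000000 held 575 (25.4%), 170000001-171000000 held 566 (15.2%) and 151000001-152000000 held 552 (8.33%). The last of these had 53, 201 and 455 sites in replicates 1, 2 and 3, so a crowded bin could still be thin in replicate 1. The fullest of chromosome 13 were 20000001-21000000 with 688 sites (22.7%), 42000001-43000000 with 586 (13.5%), 50000001-51000000 with 577 (21.1%), 96000001-97000000 with 564 (15.2%) and 21000001-22000000 with 539 (23.7%).

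Because the least recurrent bins were mostly on 1 strand, islands were compared by strand, a comparison chosen after those bins were seen. Some of the most recurrent bins were mostly on 1 strand too. Islands of at least 50 combined sites were split at 95% of sites on 1 strand, into 35 and 86 on chromosome 4 and 18 and 49 on chromosome 13. In islands on 1 strand of chromosome 13, 89.0%, 29.6% and 17.8% of sites of replicates 1, 2 and 3 recurred, and in its other islands 90.2%, 34.7% and 25.8%. The difference was −1.23, −5.18 and −8.00 percentage points, below 0 in 3 of 3 replicates, a mean of −4.80 ± 3.40 (SD, n = 3). On chromosome 4 the shares were 90.7%, 32.0% and 21.4% against 89.7%, 34.8% and 24.6%, with a mean difference of −1.65 ± 2.28 (SD, n = 3) that was above 0 in replicate 1. The other numbered chromosomes had −2.36 ± 3.38, also above 0 in replicate 1. The islands in the 3 least recurrent bins prompted the comparison and are part of it. Without them, 2 on 1 strand and 1 other, the difference on chromosome 13 was −0.82, −3.90 and −5.71 points, a mean of −3.47 ± 2.47 (SD, n = 3). With islands joined over gaps of up to 200 kb, the difference on chromosome 13 was −0.70 ± 2.78. Islands on 1 strand of chromosome 13 held 46.6 combined sites per 100 kb against 53.8 in its others, and their median score percentile was 44.7 against 49.4. The part of these in the result was not tested.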

How the data were processed

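TopHat2 2.0.8, cutadapt 1.0 and the hg19 build (GRCh37) are named, per the submitters' processing notes. Every deposited interval carries the authors' LOD score, for which neither calculation nor scale is given in the sources used here. Per the list names, scores are above 0 and 1 combined list was limited at p 0.05. All values were above 0. Score levels differ between lists, so percentiles within a list (mid-rank) were used.

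Sites were placed by midpoint in bins of 1 Mb up to the last site of any list. Overlaps were on the same strand, by at least 1 nt. Islands join sites of both strands at gaps of at most 100 kb, and empty stretches are gaps over 500 kb. The code used Python 3.11.15, numpy 2.4.6, pandas 2.3.3, scipy 1.17.1 and matplotlib 3.10.9, and was tested on simulated data. Coordinates are 1-based on hg19.

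Chromosomes and measures were chosen with earlier results of these data known. Items named are, per chromosome, the 5 fullest bins and islands, the longest empty stretches, the 5 highest LOD scores found in all 3 lists, and the 3 most and 3 least recurrent bins of at least 50 combined sites. Same-strand runs, gene counts, lone sites, values from the first site on, comparisons with chromosomes 8 and 11 or within score deciles and the comparison of islands by strand were added after values were seen. Genes, gene lists, transcript regions and sequence were planned and not used, since the annotation is on GRCh38, from which only gene numbers per chromosome were taken. Depth is unknown, so Wilson intervals cover counts of sites only.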

Additional observations from a re-analysis of the deposited data

How the results depend on the processing

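Alternatives gave 123 values for 22 results, of which 97 stayed within 1 SD over replicates (without replicates, within the 95% interval, or within 1.5 times for counts), 22 moved and 4 reversed. Where that SD is wide, staying within it is a weak criterion. Recurrence on chromosome 4 went from −2.86 to −1.26 against chromosomes 8 and 11. Its LOD percentile went from −1.03 to −0.13 within classes of sites per bin. Both counted as staying, so the 97 is no measure of stability. Against the other chromosomes, recurrence reversed for chromosome 13 in bins of at most 103 combined sites (2.39 points). The share in same-strand runs over 200 kb reversed for chromosome 13 with joining gaps of 5 kb (−0.27) and 20 kb (−0.82) and in the combined list (−1.04), and for chromosome 4 it moved to −0.0301 in that list. The cause of these was not tested. Mean in place of median width gave −1.26 and −0.69 nt for chromosomes 4 and 13. Bin size sets the empty share by construction: 23.9% and 38.7% at 0.5 Mb, 3.82% and 20.1% at 2 Mb, and 14.4% on chromosome 13 without the bins before its first site. So does the joining gap for islands, with 672 and 343 at 50 kb and 217 and 111 at 200 kb, and for sites on an island's commoner strand, with 83.6% and 82.9%, then 71.8% and 67.8%. The p-filtered list, with fewer sites, gave 93 empty stretches on chromosome 4. The p filter kept 38.5% and 40.1% with at least 50% of a site covered, and 50.1% and 51.5% at LOD above 1. The difference between islands on 1 strand and the others on chromosome 13 was −0.70 with a joining gap of 200 kb. Leaving out each replicate, recurrence differed by −2.33 to −2.14 points on chromosome 4 and −2.16 to −1.65 on chromosome 13, with recurrence then counted in 1 other list. Transcript region and sequence could not be examined without an hg19 annotation. No paired analysis was possible because serum samples carry no values here.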
